A study of Mus musculus with 22 samples.

Results

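Of the 22 mice, 12 were compared, namely the 6 with the highest and the 6 with the lowest expression of 6 genes known to be induced in hypoxia, to describe which other transcripts differed along with those genes in mammary tissue. Each of the 22 mice was given a score, the mean over Vegfa, Slc2a1, Adm, P4ha1, Ndrg1 and Pfkp of log2(CPM + 1), where CPM is the read count of a gene after each library is scaled to the same total. The libraries held reads from transcript 3′ ends (QuantSeq), so levels do not grow with transcript length. The mice were ranked by this score irrespective of treatment, so the groups are called the high mice and the low mice. The groups were chosen by the measured values of the 6 ranking genes, which were therefore left out of every test and every count of genes below.

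All mice were female C57BL/6J, 7 to 8 weeks old, and all received EO771 cells, a mammary carcinoma line of the same strain that here carried firefly luciferase, in the left 4th mammary fat pad. They had spent 2 weeks with a running wheel (wheel) or with the hub of a wheel alone (control), and were injected with liposomes holding either PBS or clodronate, a drug that kills phagocytes which take the liposomes up, before and at engraftment. Tissue with the engrafted cells was taken 24 hours after engraftment, which is early in the life of such a graft, and the RNA came from the whole piece of tissue. The groups held 6 control PBS, 6 wheel PBS, 5 control clodronate and 5 wheel clodronate mice, each mouse being 1 library, and no untreated or graft-free tissue was part of the comparison.

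Cells that run short of oxygen stabilize the alpha subunits of the hypoxia-inducible factors HIF-1 and HIF-2, which pair with ARNT and bind short DNA motifs near their target genes. The targets raise glucose uptake and glycolysis, vessel growth and matrix synthesis, and many of them are also driven by growth factor, inflammatory and stress signals, so their mRNA is not a direct reading of oxygen. Among the ranking genes, Vegfa encodes the main growth factor of blood vessels, Slc2a1 the glucose transporter GLUT1, Adm the vasodilator peptide adrenomedullin, P4ha1 a prolyl hydroxylase of collagen, Ndrg1 a stress-induced cytoplasmic protein and Pfkp a phosphofructokinase.

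The core of the HIF binding motif was looked up in the promoters of the ranking genes and of Crmp1, Hmga2 and Ier3, whose values follow below. This describes sequence only, and binding of HIF was not tested. ACGTG and GCGTG were searched on both strands in the 250 bases before each RefSeq start site (GRCm38.p6), and 1 or both lay in 38.6% of the 32851 promoters in the RefSeq table. Among the genes tested below, 59.1% of the 10986 with an entry held a match, as did 61.1% of those higher and 60% of those lower in the high mice at an unadjusted limma p under 0.05, so a match is common. All 5 ranking genes with an entry held one. Vegfa had 2 matches before its downstream start and none before its upstream start, Hmga2 held no match, and Ndrg1 had no entry. Each stretch below runs 5′ to 3′ on the strand of its gene, lies outside the gene as annotated in GENCODE M21, and shows 1 match in capitals, which on the other strand reads as CACGT or CACGC. Slc2a1 (chr4:119108654-119108710, plus strand) has the match 61 bases before the start, Adm (chr7:110627573-110627637, plus strand) 54 bases, P4ha1 (chr10:59323250-59323295, plus strand) 16 bases, Pfkp (chr13:6648778-6648824, minus strand) 23 bases, Crmp1 (chr5:37241870-37241934, plus strand) 158 bases and Ier3 (chr17:35821481-35821545, plus strand) 202 bases before it.
Slc2a1: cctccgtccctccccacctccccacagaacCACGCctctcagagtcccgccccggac
Adm: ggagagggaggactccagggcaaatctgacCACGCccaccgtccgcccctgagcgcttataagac
P4ha1: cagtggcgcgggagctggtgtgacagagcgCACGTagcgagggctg
Pfkp: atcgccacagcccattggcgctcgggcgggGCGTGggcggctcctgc
Crmp1: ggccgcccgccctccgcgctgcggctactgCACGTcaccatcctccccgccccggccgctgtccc
Ier3: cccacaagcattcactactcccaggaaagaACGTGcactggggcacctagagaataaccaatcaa

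The high mice scored, from the top, 5.31 (wheel PBS 4, that is the wheel mouse with PBS liposomes and replicate number 4), 5.06 (control PBS 1), 4.81 (control PBS 2), 4.79 (control clodronate 3), 4.78 (control PBS 6) and 4.78 (wheel PBS 3). The next mouse, wheel clodronate 3, was just outside the group at 4.61. The low mice scored 4.23 (control PBS 4), 4.22 (control clodronate 2), 4.11 (control clodronate 5), 4.11 (wheel clodronate 1), 4.10 (wheel PBS 2) and 3.96 (wheel clodronate 4), and control clodronate 4 lay just above them at 4.24. The scores therefore showed a gap under the sixth mouse but none above the low group, and the plot of the score by rank has 2 mice, wheel PBS 4 and control PBS 1, apart at its top.

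**Figure D1:**
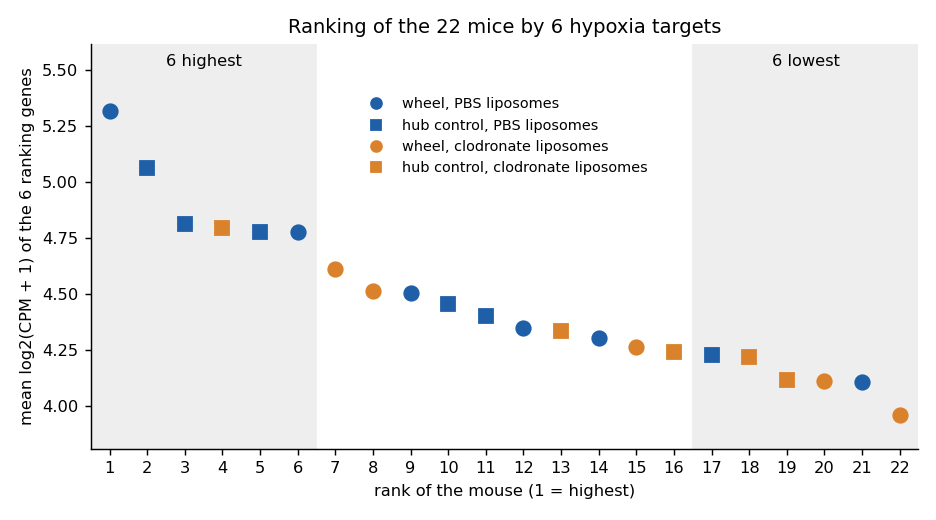
Mean log2(CPM + 1) of the 6 ranking genes (vertical axis) for each of the 22 mice by rank (horizontal axis), with color for the liposome and shape for the activity, and shading for the 6 highest and 6 lowest mice. The high mice span 4.78 to 5.31 and the low mice 3.96 to 4.23, and 5 of the 6 high mice had PBS liposomes.

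Wheel mice made up 2 of the 6 high and 3 of the 6 low mice, and the groups did not differ in activity (two-sided Fisher's exact test, p = 1, a test that has little power at 6 against 6). PBS liposomes had been given to 5 of the 6 high and 2 of the 6 low mice, a difference that also missed the threshold (two-sided Fisher's exact test, p = 0.242). By treatment group, the high mice were 3 of 6 control PBS, 2 of 6 wheel PBS, 1 of 5 control clodronate and 0 of 5 wheel clodronate mice, and the low mice 1, 1, 2 and 2. Median scores were 4.62 in control PBS, 4.42 in wheel PBS, 4.24 in control clodronate and 4.26 in wheel clodronate mice, and the ranges of all 4 groups overlapped. Liposome and score thus went together in part. Some values were therefore also read within PBS mice (5 high against 2 low) and with activity and liposome as terms of the fit. Both are given for Crmp1, Hmga2, Ccl2, Nol10 and Cldn4, and the first for some macrophage genes. Medians of many lists in both settings come with the lists or together after them. For the other genes neither is given.

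The ranking genes did not contribute alike, as the values in each mouse show, and these are given as description since they made the groups. For Slc2a1, the high mice had 57.0, 27.8, 27.2, 37.1, 22.5 and 21.8 CPM in rank order and the low mice 10.3, 21.8, 11.5, 18.0, 13.4 and 15.4 CPM. For P4ha1, the high mice had 21.0, 18.9, 11.3, 11.6, 13.2 and 16.7 CPM and the low mice 5.15, 5.79, 6.86, 8.47, 3.32 and 5.41 CPM. For Adm, the high mice had 23.6, 16.6, 19.3, 8.65, 17.6 and 14 CPM and the low mice 11.4, 4.82, 5.96, 1.31, 4.58 and 3.40 CPM. The groups were apart for P4ha1, met at 21.8 CPM for Slc2a1, and overlapped for Adm in 1 mouse each, control clodronate 3 and control PBS 4. Adm had the largest difference in mean log2(CPM + 1), 1.62, followed by P4ha1 with 1.27, Slc2a1 with 1.01 and Pfkp with 0.62.

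Vegfa and Ndrg1 added almost nothing to the separation. Vegfa was at 46.0 ± 5.18 CPM (SD, n = 6) in the high and 46.1 ± 10.3 CPM (SD, n = 6) in the low mice, with its 2 highest values of the 12, 60.8 and 56.1 CPM, in low mice (wheel clodronate 1 and wheel PBS 2). Ndrg1 was at 49.6 ± 11 CPM (SD, n = 6) against 40.2 ± 3.40 CPM (SD, n = 6), and its highest and its lowest value of the 12, 66.4 and 32.7 CPM, were both in high mice. The groups are therefore better named by Adm, P4ha1, Slc2a1 and Pfkp than by hypoxia targets as a class.

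The same order was seen when each gene was left out and the mice were ranked again by the other 5, so that its values had no part in choosing the groups. All 6 high mice stayed high in each of these rankings, while between 3 and 6 of the low mice stayed low, with 3 when P4ha1 was left out. The difference between the groups was then 1.06 for Adm, 0.88 for P4ha1, 0.87 for Slc2a1 and 0.62 for Pfkp on the log2 scale, and -0.20 for Vegfa and 0.05 for Ndrg1. Slc2a1 and P4ha1 still did not overlap between the groups.

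**Figure D2:**
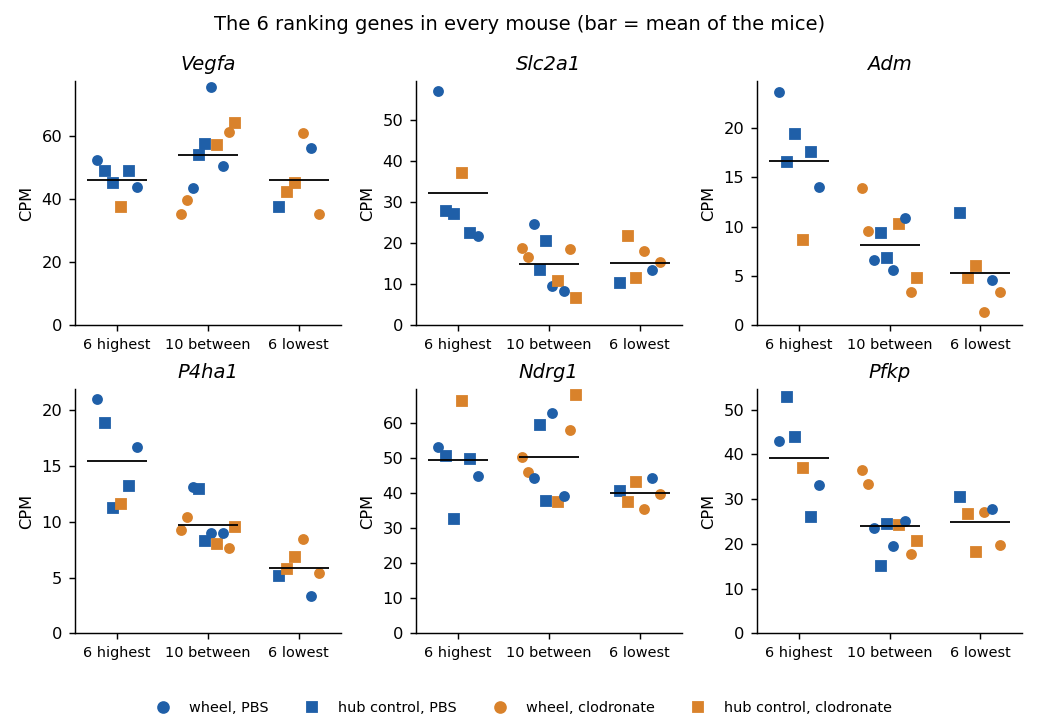
CPM of each ranking gene (vertical axes, from 0) in the 6 highest, 10 intermediate and 6 lowest mice, each point a mouse with color for the liposome and shape for the activity, and each bar the mean. P4ha1 separates the groups (11.3 to 21.0 against 3.32 to 8.47 CPM), whereas Vegfa has the same mean in both (46.0 and 46.1 CPM).

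Before the comparison across genes, the libraries were checked. The high mice had 13314092 to 17947621 reads and the low mice 13256467 to 17092041, of which 58.5% to 63.1% and 57.8% to 63.2% were assigned to genes. Values below 1 CPM, which is 13 to 17 reads in these 12 libraries, had been raised to 1, and a gene is called at the floor where it stands at 1 CPM. Adipocyte genes were abundant in all 12 mice (19563 to 40369 CPM summed over 15 markers), as a mammary fat pad would hold. Lymphocyte markers set 3 of the 12 mice apart, control PBS 2 and wheel PBS 3 among the high and wheel clodronate 4 among the low mice, with mean log2(CPM + 1) of 4.15, 4.29 and 5.58 against 1.00 to 1.25 in the other 9. Skeletal muscle markers ranged from 1.71 to 7.30 in the high and from 1.89 to 10.7 in the low mice, with the top value in control clodronate 2. In whole tissue, more cells of a type and more RNA per cell cannot be told apart.

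Of 15132 genes above the floor in at least 5 of the 22 mice, 1 differed between the high and low mice in limma at a Benjamini-Hochberg adjusted p under 0.05, which is 0.00661% of those tested. Without adjustment, 838 genes (5.54%) were higher and 300 (1.98%) lower in the high mice at a limma p under 0.05, 7.52% of the genes either way. Every high mouse was above every low mouse for 50 genes (0.33%) and below every low mouse for 13 (0.0859%). The median difference over all genes was 0.040 on the log2(CPM + 1) scale. After upper-quartile scaling the split without adjustment was 648 higher and 474 lower, and with activity and liposome in the fit it was 433 higher and 470 lower with 0 genes past adjustment. Within PBS mice it turned to 773 higher and 1069 lower, on 2 low mice. The excess of higher genes thus depended on the scaling and on how treatment was handled. Of the genes tested, 733 passed the filter only through the high mice, that is with fewer than 5 of the other 16 above the floor, and these include 40 of the 838 higher genes, while 14 of the 300 lower genes passed only through the low mice. These p-values describe how other genes moved with the ranking genes between mice of mixed treatment, and not the effect of any treatment.

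That gene was Crmp1, which encodes a collapsin response mediator protein, a cytoskeletal phosphoprotein best known from growing axons, and lies on chromosome 5 (37241940 to 37292133, GRCm38). The high mice had 8.60, 6.35, 3.29, 5.79, 6.24 and 5.93 CPM in rank order. Among the low mice, control clodronate 5 had 1.36 CPM and the other 5 were at the floor. The groups were far apart, with a difference of 1.74 (SE 0.21, limma adjusted p = 0.0118). Since the low values were limited by the floor, the true fold is not known. In the 10 mice between, 5 were above the floor, at 1.28 to 3.52 CPM, and the upper 5 exceeded the lower 5 by 0.37. The difference was 1.89 without the 3 lymphocyte-rich mice, 1.78 within PBS mice and 1.79 with activity and liposome in the fit, where the limma adjusted p was 0.219. The call rested on the low mice as well: leaving out any of the 5 at the floor raised the limma adjusted p to between 0.056 and 0.0768.

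Next in rank of the moderated t statistic among higher genes came Hmga2, Ccl2, Il1b and Nol10, none of which passed adjustment. Hmga2, a chromatin protein of embryonic tissue that many carcinomas re-express, was at 32.9, 22.6, 11.6, 11, 23.8 and 6.16 CPM in the high mice. In the low mice it was at 1, 3.41, 5.43, 1.65, 1.57 and 1 CPM. The groups did not overlap, and the difference was 2.46 (SE 0.42, limma adjusted p = 0.176). Ccl2, the chemokine that draws monocytes through the receptor CCR2, was at 54.6, 24.0, 15.1, 16.3, 24.2 and 16.1 CPM in the high and at 1, 1.89, 13.1, 1.86, 3.56 and 2.67 CPM in the low mice. The highest value was that of wheel PBS 4, the mouse with the highest score, and a low mouse, control clodronate 5, came close to the lowest high mouse at 13.1 CPM (difference 2.56, SE 0.45, limma adjusted p = 0.176). Il1b, the cytokine interleukin-1 beta, was at 2.55 to 5.71 CPM in the high mice and at the floor in 5 of 6 low mice, with 2.44 CPM in control clodronate 2. It was above the floor in 2 of the other 16 mice and so passed the filter only through the high mice, and its values are given as a description. It is nevertheless counted among the 50 genes for which every high mouse was above every low mouse. Nol10, a nucleolar protein, was at 22.1 ± 2.96 CPM (SD, n = 6) in the high and 9.68 ± 3.14 CPM (SD, n = 6) in the low mice (difference 1.15, SE 0.21). Within PBS mice the differences were 2.97 for Hmga2, 3.05 for Ccl2 and 0.92 for Nol10. With activity and liposome in the fit they were 2.44, 2.68 and 0.94.

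Among lower genes the 5 of the largest statistic were 2610306M01Rik, Cldn4, Art4, 2610035D17Rik and Pgap3, with limma adjusted p of 0.176 to 0.331. Cldn4, which encodes a tight junction protein of luminal epithelium (chromosome 5, 134945119 to 134946934), was at 37.5, 26.9, 25.6, 41.4, 36.3 and 23 CPM in the high mice. In the low mice it was at 83.4, 65.0, 49.6, 89.2, 71.9 and 44.3 CPM. Each low mouse was above each high mouse, with a difference of -1.04 (SE 0.20). This difference was -1.37 within PBS mice and -1.08 with activity and liposome in the fit. The lncRNA 2610306M01Rik differed by -1.12 (SE 0.19), with 1 to 1.46 CPM against 2.29 to 5.51 CPM, the ADP-ribosyltransferase gene Art4 by -0.97 (SE 0.21), the lncRNA 2610035D17Rik by -1.20 (SE 0.26) and the GPI-anchor remodeling gene Pgap3 by -0.81 (SE 0.19). Apart from Cldn4, these genes were within a few CPM of the floor.

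With the score as a continuous measure over all 22 mice, which include the 12, limma called 104 genes, 103 higher (0.681%) and 1 lower (0.00661%) with the score. Crmp1 had a slope of 2.08 per unit of score (SE 0.25, limma adjusted p = 0.000183), Hmga2 3.35, Ccl2 3.44 and Nol10 1.39, and the limma adjusted p of these 3 lay between 0.00155 and 0.00822. The gene that was lower was Lama3 (slope -1.65, limma adjusted p = 0.047), a laminin chain of epithelial basement membranes, named here after its value was seen. The scatter of these genes over the score shows how they differ in shape. Il1b, which passed the filter only through the high mice, is counted among the 103 and was at the floor in 9 of the 10 mice between. Crmp1 was at the floor in 5 of them and reached 3.52 CPM in wheel PBS 5, above the lowest high mouse at 3.29 CPM, while Nol10 had 15.3 to 18.4 CPM in 4 of the 5 mice of rank 7 to 11.

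**Figure D3:**
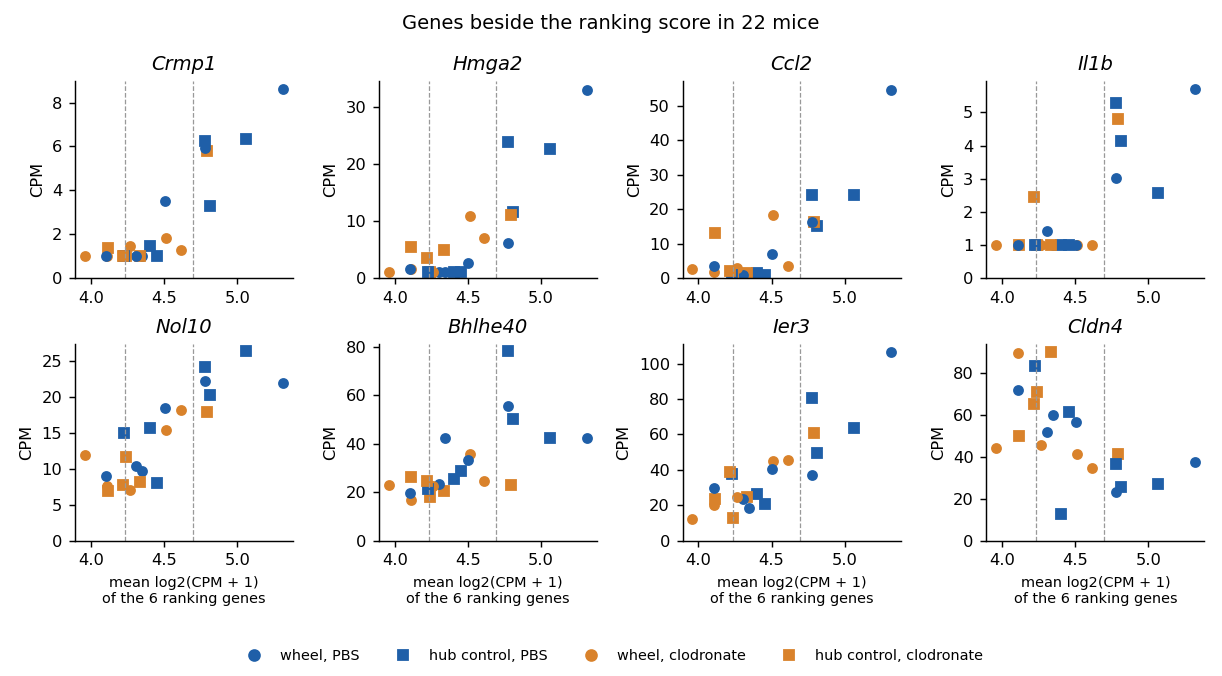
CPM (vertical axes, from 0) of 8 genes against the score of the ranking genes (horizontal axes) in 22 mice, with color for the liposome, shape for the activity, and dashed lines at the limits of the 6 highest and 6 lowest mice. Crmp1 is at 3.29 CPM or more in each high mouse, Il1b at 2.55 CPM or more, and Cldn4 is lower in each high than in each low mouse.

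Other genes of the HIF pathway differed in part. Of 34 other direct HIF targets tested, 0 passed adjustment, and 7 (20.6%) were higher at an unadjusted limma p under 0.05 and 0 lower, beside 5.54% and 1.98% of all genes. A difference above 0 was seen in 20 of the 34, where 55.5% of all genes had one. The median difference was 0.21 beside 0.040 over all genes. Their mean log2(CPM + 1) was 4.33 to 4.76 in the high and 3.87 to 4.41 in the low mice, which overlapped. The 2 targets of the highest mean level were Bnip3, a mitophagy receptor, and Pfkfb3, a regulator of glycolysis. Bnip3 was at 154 ± 33.5 CPM (SD, n = 6) against 179 ± 51.2 CPM (SD, n = 6), a difference of -0.18 (SE 0.22), and Pfkfb3 differed by 0.20 (SE 0.20). Car9, often taken as a specific mark of HIF-1 activity, was at the floor in all 12 mice.

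Of the 7 higher targets, 6 are given here, after their values were seen, and several have other known inducers. Ier3, an early response gene of survival signaling, was at 106, 63.7, 49.7, 60.6, 80.8 and 36.9 CPM in the high and 37.8, 38.9, 23.5, 20.3, 29.6 and 12.2 CPM in the low mice (difference 1.28, SE 0.29, limma adjusted p = 0.311). Bhlhe40, a circadian and immune transcriptional repressor, was at 42.5, 42.2, 50.4, 22.8, 78.1 and 55.5 CPM against 21.2, 24.7, 26.1, 16.9, 19.8 and 22.8 CPM (difference 1.04, SE 0.24, limma adjusted p = 0.311). In both genes a single high mouse, wheel PBS 3 for Ier3 and control clodronate 3 for Bhlhe40, reached into the low range, and both genes were among the 104 called over 22 mice. Slc16a3, the lactate exporter MCT4, differed by 1.99 (SE 0.64). The low mice control clodronate 2 and control clodronate 5, at 36.6 and 30.7 CPM, lay within the high range of 22.6 to 96.2 CPM. Wsb1, a ubiquitin ligase adaptor, differed by 1.18 (SE 0.37), Plin2, a lipid droplet coat protein, by 0.68 (SE 0.27) and hexokinase 2, Hk2, by 0.51 (SE 0.21). Other well known targets were close to even, with 0.25 (SE 0.36) for the oxygen sensor Egln3, 0.19 (SE 0.24) for the mTOR inhibitor Ddit4 and 0.34 (SE 0.23) for pyruvate dehydrogenase kinase 1, Pdk1.

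The regulators of the pathway showed small differences as mRNA, while HIF alpha subunits are known to be set mainly by protein stability. Of 10 tested, only Arnt, the partner of the alpha subunits, was higher at an unadjusted limma p under 0.05 (20.6 against 14.6 CPM, difference 0.47, SE 0.21), and the median of 0.05 changed sign under upper-quartile scaling (-0.009). Hif1a was at 48.0 ± 10.5 CPM (SD, n = 6) in the high and 40.3 ± 6.63 CPM (SD, n = 6) in the low mice, Epas1, which encodes HIF-2 alpha, at 115 ± 21.5 against 105 ± 17.6 CPM and the coactivator Crebbp at 121 ± 16.3 against 124 ± 20.1 CPM, with unadjusted limma p of 0.183, 0.397 and 0.807.

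Glycolytic enzymes were higher in part. Of 17 tested, 5 (29.4%) were higher and 0 lower at an unadjusted limma p under 0.05, beside 5.54% and 1.98% of all genes, 0 passed adjustment, and the median was 0.41. Hexokinase 1, Hk1, was at 34.5, 31.3, 27.8, 27.9, 34.8 and 42.5 CPM in the high and 24.6, 24.6, 19.5, 18.7, 26.7 and 20.9 CPM in the low mice, without overlap (difference 0.54, SE 0.15). Lactate dehydrogenase A, Ldha, differed by 0.52 (SE 0.22), enolase 1, Eno1, by 0.79 (SE 0.29), and the isomerase Gpi1 and liver phosphofructokinase, Pfkl, by 0.41 (SE 0.19) and 0.55 (SE 0.22), while Aldoa, the aldolase of highest level, differed by -0.01 (SE 0.35). Gapdh and Pgk1 (0.74 and -0.05) have many processed copies in the genome, which can divert their reads, and their values are uncertain. A low mouse, control clodronate 2, had the highest score of the list at 6.06 against 4.21 to 4.74 in the other low mice, and was also the mouse highest in muscle markers, with 3191 CPM of Aldoa against 612 to 1261 CPM in the other 11. The muscle forms Pgam2, Eno3 and Pfkm differed by -1.19, -0.52 and -0.54. The part of muscle in the list was not tested.

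Of the 36 genes of the hypoxia signature that the study used and that could be tested apart from the ranking genes, 11 (30.6%) were higher and 1 (2.78%) lower at an unadjusted limma p under 0.05, against 5.54% and 1.98% of all genes, with a median of 0.26. Of the 11, Anln, Kif20a, Tubb6, Tuba1c and Coro1c serve cell division or the cytoskeleton, Mif is a cytokine, Mrpl15 a mitochondrial ribosomal protein and Slc16a1 a lactate transporter, beside Eno1, Ldha and Hk2. Tubb6, a tubulin, was at 47.1, 41.3, 17.9, 22.3, 32.3 and 19.5 CPM against 16, 11, 16.6, 15.4, 10.4 and 10.9 CPM (difference 1.04, SE 0.26), again without overlap, and was the only member called over 22 mice. The lower one, Esrp1, is a splicing factor of epithelial cells (22.4 against 42.2 CPM, difference -1.10, SE 0.51). The list shares genes with the lists of targets and glycolytic enzymes.

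Vessel genes did not separate the groups. Of 19 ligands and receptors of the VEGF, angiopoietin and adrenomedullin families, 2 (10.5%) were higher and 1 (5.26%) lower at an unadjusted limma p under 0.05, beside 5.54% and 1.98% of all genes, and the median was -0.02. The lymphatic pair split, the ligand Vegfc being at 1 to 3.80 CPM against 1 to 1.11 CPM (difference 0.53, SE 0.21) and its receptor Flt4 at 1 to 2.32 CPM against 1.89 to 8.87 CPM (difference -0.62, SE 0.28), the latter with its top value in wheel clodronate 4, a lymphocyte-rich mouse. The receptor Kdr differed by 0.21 (SE 0.21) and Nrp1 by 0.00 (SE 0.20). Of 14 endothelial markers, 0 were higher or lower at an unadjusted limma p under 0.05, and the median of 0.03 changed sign under upper-quartile scaling (-0.03). Pecam1 was at 51.6 ± 11.9 CPM (SD, n = 6) in the high and 51.0 ± 14 CPM (SD, n = 6) in the low mice and Ptprb at 62.8 ± 9.05 against 68.5 ± 20.1 CPM.

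Proliferation genes were the list with the highest median. Of 27, 18 were higher and 0 lower at an unadjusted limma p under 0.05, against 5.54% and 1.98% of all genes, 25 had a difference above 0, and the median was 0.99. None passed adjustment. Ube2c, a ubiquitin-conjugating enzyme of mitotic exit, was at 35.9, 37.3, 21.6, 20.7, 39.7 and 28.0 CPM in the high and 20.1, 12.0, 13.9, 1.24, 4.76 and 12.1 CPM in the low mice (difference 1.70, SE 0.45). Cdk1, the mitotic kinase, differed by 1.54 (SE 0.42), the checkpoint kinase Bub1 by 1.24 (SE 0.28) and cyclin B1, Ccnb1, by 1.21 (SE 0.46), and these 4 were called over 22 mice. Top2a, of the highest level in the list, was at 41.7 to 131 CPM against 21.7 to 123 CPM (difference 0.82, SE 0.37). Mki67 (10.3 against 15.4 CPM, difference -0.15) and Pcna (-0.17) did not follow.

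The scores of the proliferation list overlapped, at 3.20 to 4.32 in the high and 2.34 to 3.90 in the low mice, with control PBS 4 the highest low mouse. In the 10 mice between, the list's median difference was 1.14, larger than between the high and low mice, since the lowest scores of all 22 mice (1.58 to 2.20) were in ranks 10 and 12 to 16. With the proliferation score as a term of the fit, added after the data were seen, 0 genes passed adjustment in limma (725 at an unadjusted p under 0.05). The differences were then 1.61 for Crmp1, 2.00 for Hmga2 and 0.82 for Ier3. That of Cdk1 was 0.37, but Cdk1 is a member of the list that made the score, so a smaller difference was built in.

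**Figure D4:**
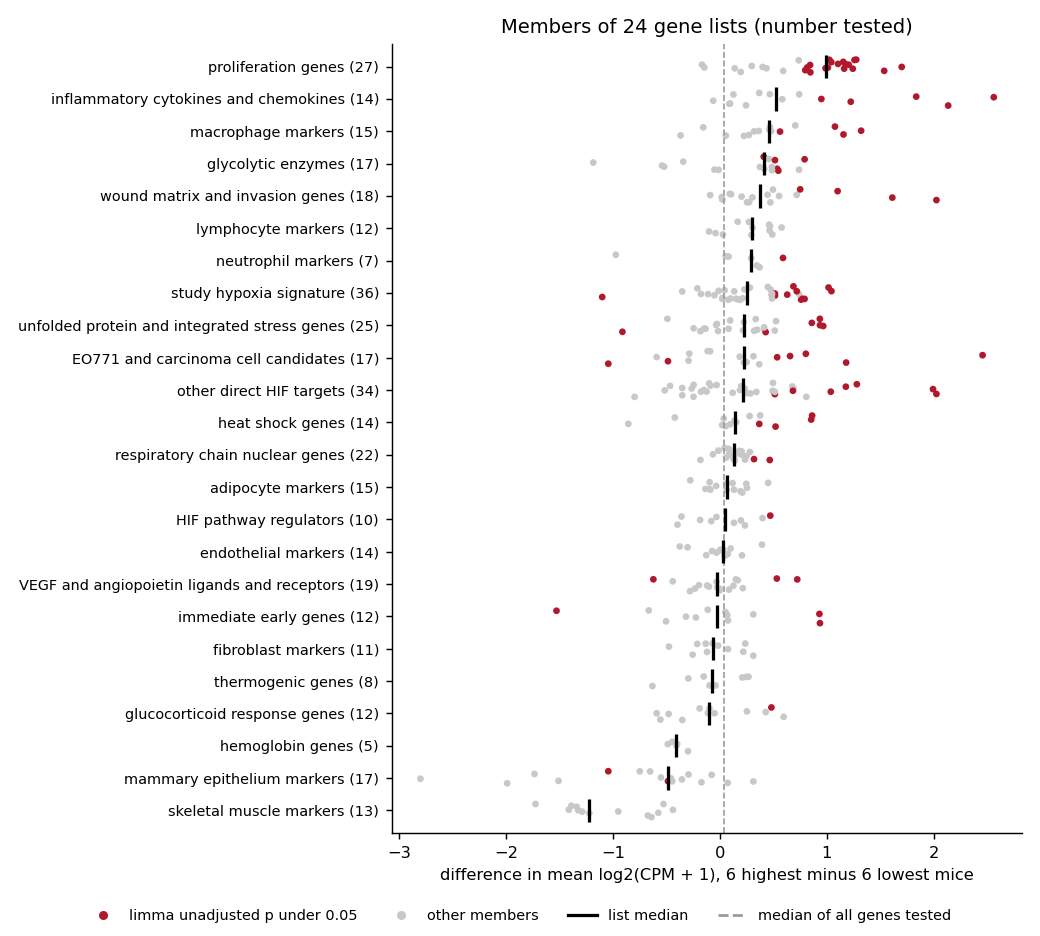
Difference in mean log2(CPM + 1) between the 6 highest and 6 lowest mice (horizontal axis) for each member of 24 lists ordered by their median (black bar), in red where the unadjusted limma p was under 0.05. The median is 0.99 for proliferation genes and -1.22 for skeletal muscle markers, against 0.040 over all genes (dashed line).

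Genes known from carcinoma cells were split. Of 17 candidates for transcripts of the engrafted EO771 cells, 5 were higher (Hmga2, Plaur, S100a4, Lgals1 and S100a6) and 2 lower (Cldn4 and Epcam) at an unadjusted limma p under 0.05, which is 29.4% and 11.8% against 5.54% and 1.98% of all genes, with a median of 0.22. These 5 are known from invasive or mesenchymal cells and these 2 from epithelium. The epithelial members Krt8, Krt18, Krt19 and Cldn7 and the members Lgals3 and Tgfbi were not past this threshold. Of the 17, 10 had a difference above 0. Lgals1, a galectin, was at 486 ± 165 CPM (SD, n = 6) against 299 ± 66.9 CPM (SD, n = 6), S100a6, a calcium-binding protein, at 783 ± 225 against 533 ± 126 CPM, and Plaur, the urokinase receptor, differed by 1.18 (SE 0.35). Epcam, an adhesion molecule of epithelium, was at 51.7 ± 10.1 CPM (SD, n = 6) against 73.4 ± 19.5 CPM (SD, n = 6), a difference of -0.49 (SE 0.18). Summed over the list, the high mice had 1492 to 2589 CPM and the low mice 1264 to 1836 CPM.

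Some genes of reproductive or embryonic tissue, and the AP-1 subunit gene Fosl1, went with the score, and were picked after their values were seen. Rhox5, a homeobox gene of the reproductive tract, was at 59.3, 45.0, 20.3, 3.56, 68.8 and 16.1 CPM in the high mice. In the low mice it was at 1, 3.35, 22.6, 5.79, 1 and 1 CPM (difference 2.64, SE 0.72, limma adjusted p = 0.43). Esx1, a placental homeobox gene, differed by 1.98 (SE 0.54) and Dppa4, a gene of pluripotent cells, by 1.68 (SE 0.37), and Fosl1 by 2.28 (SE 0.50). In each of the 4 the same low mouse, control clodronate 5, was the highest of its group, with 22.6 CPM of Rhox5, 12.7 CPM of Esx1, 7.17 CPM of Dppa4 and 13.4 CPM of Fosl1, and 13.1 CPM of Ccl2 and 5.43 CPM of Hmga2. All 6 genes were called over 22 mice. How many engrafted cells each piece of tissue held was not measured, and their part in these values was not tested.

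Of the markers of normal mammary epithelium, Cldn4 and Epcam were lower in the high mice. Of 17 mammary epithelial markers, 0 were higher and 2 lower (Cldn4 and Epcam, shared with the list above) at an unadjusted limma p under 0.05, which is 11.8% lower beside 1.98% of all genes, and 15 had a difference of 0 or below. The median was -0.49, and it was -0.17 within PBS mice and -0.63 with activity and liposome in the fit. The scores were 4.84 to 5.70 in the high and 5.28 to 6.52 in the low mice, and without wheel clodronate 4, the lowest of the low, they were apart, at 6.21 or more. Krt15, a basal keratin, varied from 2.55 to 1087 CPM in the high and 4.80 to 1151 CPM in the low mice (difference -2.80, SE 1.48), and Prlr, the prolactin receptor, was at 311 ± 112 against 410 ± 125 CPM (SD, n = 6 each). Summed over the list, the ranges were 792 to 5455 and 1159 to 4645 CPM, and the milk protein gene Csn2 was at the floor in all 12 mice. The part of epithelial content in the differences was not tested.

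Inflammatory genes were higher in part. Of 21 cytokines and chemokines listed, 14 were tested, of which 5 were higher (Ccl2, Ccl7, Cxcl10, Il1b and Ccl4) and 0 lower at an unadjusted limma p under 0.05, beside 5.54% and 1.98% of all genes, and 0 passed adjustment. Il1b, Ccl4 and Cxcl1 passed the filter only through the high mice, and of the other 11 tested 3 were higher. Il6 and Cxcl3 were at the floor in all 12 mice. Ccl7, a monocyte chemokine like Ccl2, was at 37.9, 17.7, 17.7, 1.74, 17.7 and 7.74 CPM against 1, 1.10, 7.17, 1, 5.13 and 1 CPM (difference 2.14, SE 0.59). Cxcl10, an interferon-induced chemokine, was at 2.78 to 18.1 CPM in the high mice and at the floor in 5 of 6 low mice (difference 1.84, SE 0.45). Cxcl9, also interferon-induced, and Ccl8, the members of the highest level, differed by 0.37 (SE 0.33) and 0.47 (SE 0.42), and Tnf by -0.06.

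Monocyte and macrophage genes were higher in part. Of 15 macrophage markers, 4 (26.7%) were higher (Fcgr1, Itgam, Cd68 and C1qc) and 0 lower at an unadjusted limma p under 0.05, beside 5.54% and 1.98% of all genes, and the median was 0.46. Itgam, the integrin CD11b of monocytes and neutrophils, was at 36.3, 34.3, 17.2, 18.1, 23.1 and 24.3 CPM in the high and 8.89, 9.08, 13.4, 9.50, 17.1 and 7.41 CPM in the low mice, the lowest high mouse being just above the highest low one (difference 1.16, SE 0.25). Ccr2, the receptor for Ccl2, picked after its values were seen, was at 21.3 to 81.1 CPM against 10.3 to 21.0 CPM (difference 1.35, SE 0.30), and Ms4a6c and the protease gene Lgmn, picked in the same way, differed by 1.54 (SE 0.31) and 1.48 (SE 0.30). C1qa and C1qb, complement genes of tissue macrophages and the highest of the list, differed by 0.32 (SE 0.17) and 0.36 (SE 0.22), Mrc1 by 0.46 (SE 0.23) and Lyve1 by 0.27 (SE 0.37).

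Since clodronate acts on phagocytes and 4 of the low but 1 of the high mice had received it, the macrophage values were also read within treatment. The median of the list was 0.06 within PBS mice and 0.17 with activity and liposome in the fit, and C1qa and C1qb were at -0.08 and 0.00 within PBS mice. Itgam remained at 1.02, Ccr2 at 1.16 and Lgmn at 2.06 within PBS mice, on 2 low mice. Summed over the 15 markers the high mice had 373 to 586 CPM and the low mice 233 to 419 CPM. Neutrophil markers were sparse, with 7 of 13 tested, Ly6g, Stfa2l1 and Trem1 at the floor in all 12 mice and only Clec4e, which passed the filter only through the high mice, higher at an unadjusted limma p under 0.05.

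Wound and invasion genes were likewise higher in part. Of 18 tested, 4 were higher, among them Spp1, Timp1 and Mmp13, and 0 lower at an unadjusted limma p under 0.05, which is 22.2% higher against 5.54% of all genes. Mmp13 passed the filter only through the high mice, and the median was 0.38. Spp1, the matrix protein osteopontin, was at 17.9, 12.1, 6.64, 2.02, 11.5 and 1 CPM against 1, 1.65, 1.58, 1, 2.17 and 1 CPM (difference 1.61, SE 0.48), and Timp1, an inhibitor of metalloproteinases, at 3.38 to 15.2 CPM against 1 to 6.71 CPM (difference 1.10, SE 0.41). The groups overlapped in both. The matrix genes of highest level were even, with 0.10 (SE 0.27) for Postn and 0.20 (SE 0.18) for Mmp14.

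Stress lists were mixed. Of 25 genes of the unfolded protein and integrated stress responses, 5 (20%) were higher and 1 (4%) lower (Chac1) at an unadjusted limma p under 0.05, beside 5.54% and 1.98% of all genes, with a median of 0.22. Shmt2, a mitochondrial enzyme of serine use, was at 34.3, 31.3, 26.4, 25.9, 25.7 and 17 CPM against 11.4, 21.5, 15.3, 8.68, 11.9 and 11.7 CPM (difference 0.97, SE 0.23), with Mthfd2 of the same pathway at 0.94 (SE 0.37) and the amino acid transporter Slc7a5 at 0.86 (SE 0.23). The chaperone Hsp90b1 of the endoplasmic reticulum differed by 0.43 (SE 0.14) and Hspa5 by 0.34 (SE 0.16, limma adjusted p = 0.661). Of 14 heat shock genes, 4 (28.6%) were higher and 0 lower with a median of 0.14, among them Hsp90aa1, at 95 to 253 CPM against 57.8 to 123 CPM (difference 0.86, SE 0.25), while Hsp90ab1 differed by 0.14 (SE 0.18). Shmt2 and Hsp90aa1 were both called over 22 mice.

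The remaining lists were near the value of all genes or varied widely. No adipocyte marker (0 of 15), thermogenic gene (0 of 8), fibroblast marker (0 of 11), lymphocyte marker (0 of 12), hemoglobin gene (0 of 5) or muscle marker (0 of 13) was higher or lower at an unadjusted limma p under 0.05, with medians of 0.06, -0.07, -0.07, 0.30, -0.41 and -1.22. Of the 12 lymphocyte markers, 6 passed the filter only through the high mice. The adipocyte genes Car3 and Cfd were at 7450 ± 1706 against 9066 ± 2170 CPM and 6277 ± 1649 against 6697 ± 2476 CPM (SD, n = 6 each), and the fibroblast gene Dcn at 662 ± 199 against 677 ± 109 CPM. All 13 muscle markers had a difference below 0, but the groups overlapped broadly, as Acta1 with 5.46 to 721 CPM against 7.35 to 6082 CPM shows, and in the 10 mice between the median was 1.66, the other way. Of 22 nuclear genes of the respiratory chain, 2 (9.09%) were higher at an unadjusted limma p under 0.05 (Cox7c and Atp5b, the latter by 0.32, SE 0.13), close to the 5.54% of all genes, with a median of 0.13. Of 12 glucocorticoid response genes, Fkbp5 alone (8.33%) was higher (median of the list -0.10), and of 12 immediate early genes Atf3 and Myc (16.7%) were higher and Egr3 (8.33%) lower (median -0.03).

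The medians of several lists moved when treatment was taken into account. Medians are given first within PBS mice (5 high against 2 low) and then with activity and liposome in the fit. Other direct HIF targets were at 0.07 and 0.15 and carcinoma cell candidates at 0.11 and 0.17. Adipocyte markers were at -0.11 and -0.17, fibroblast markers at -0.33 and -0.28 and skeletal muscle markers at -0.42 and -0.37. Hemoglobin genes were at 0.28, which turned sign, and at -0.35, and lymphocyte markers at 1.35 and 0.74. Unfolded protein and integrated stress genes were at 0.18 and 0.12, heat shock genes at 0.14 and 0.06. The respiratory chain was at 0.14 and 0.00. Proliferation genes were at 0.79 and 0.75, glycolytic enzymes at 0.57 and 0.38. Inflammatory cytokines and chemokines were at 0.64 and 0.56, wound and invasion genes at 0.26 and 0.37. The hypoxia signature of the study was at 0.35 and 0.17.

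**Figure D5:**
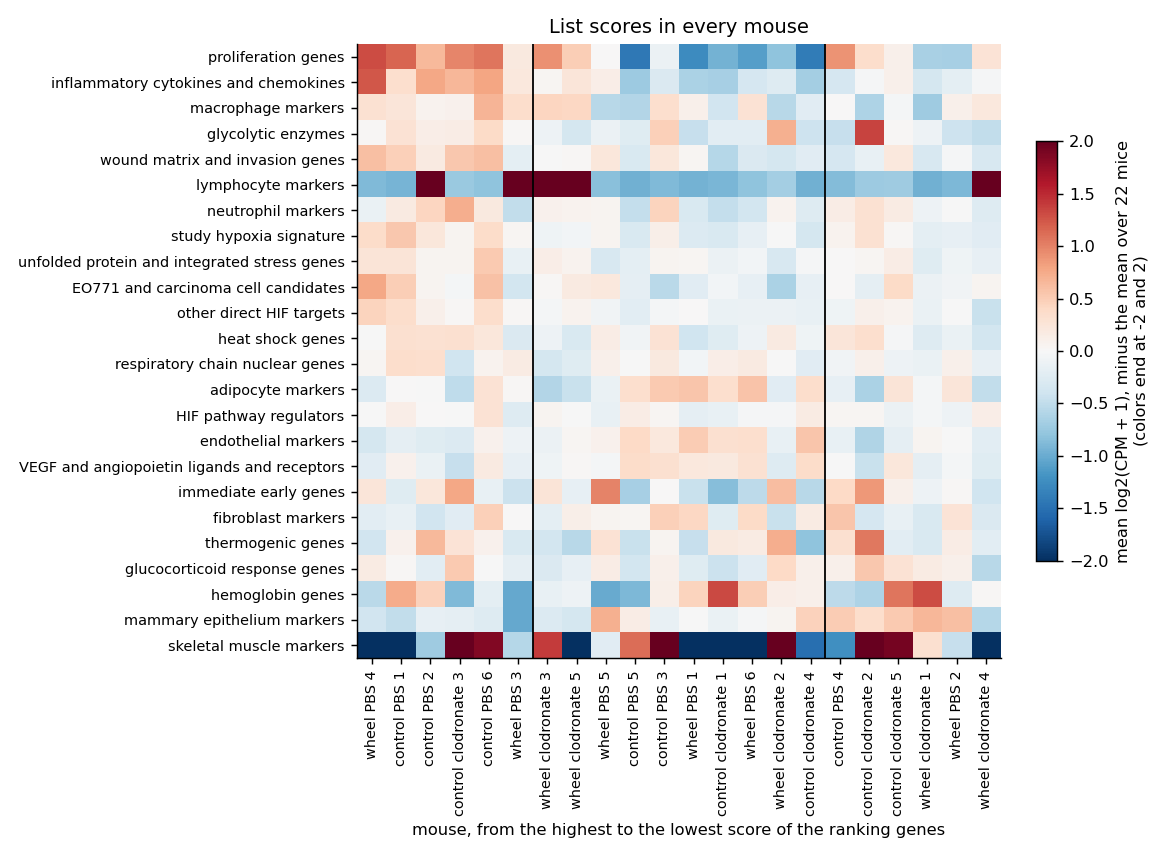
Mean log2(CPM + 1) of 24 lists (rows, ordered as in the plot of members) in each of 22 mice (columns, in order of the ranking score, lines at the limits of the 6 highest and 6 lowest), minus the mean over the 22 mice. The proliferation and inflammatory lists are high in the first columns, while lymphocyte markers stand out in 5 single mice, 3 of them among the 12 compared (scores of 4.15, 4.29 and 5.58).

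The 10 mice between were used to see whether the same genes moved in mice that the comparison had not used. Of the 838 higher genes, 73.5% were higher in ranks 7 to 11 than in ranks 12 to 16, beside 56.6% of all genes, and their median difference was 0.22 beside 0.052. Of the 300 lower genes, 56.7% were lower, beside 43.1% of all genes, with a median of -0.07. This is a description without a test, as the genes share the same mice and the 10 mice were themselves ordered by the score.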

How the data were processed

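RNA from mammary tissue of 22 mice was sequenced from transcript 3′ ends (QuantSeq 3′ FWD), and the labels gave each mouse its group. The authors deposited a signal per gene in CPM relative to all reads, unmapped ones included, with values under 1 raised to 1, and per the labels and the submitters' processing notes used STAR 2.5.3a and GRCm38. Every value above that floor was a whole number of reads within 0.1 read, which gave the depth (median 16293026 reads). A gene at the floor may have had as many as 13 to 20 reads, depending on the mouse, so no count model was used and low values are imprecise.

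Of 52526 symbols (the row with the higher mean was kept for the 106 listed more than once), 15138 were above 1 CPM in at least 5 mice, and 15132 without the ranking genes. The 4 rows that name no gene (unmapped, multimapping, outside genes or ambiguous reads) were 35.4% to 42.6% of the reads of a mouse and were left out. The 6 highest and 6 lowest mice were fitted with limma 3.58.1 in R 4.3.3 on log2(CPM + 1) (eBayes with a variance trend, Benjamini-Hochberg over 15132 genes), a scale that understates the differences of genes near the floor. Labels were compared by Fisher's exact test in scipy 1.17.1. The step was tested on simulated data. The mice, the 24 lists and the tests were chosen with earlier results of these data known, and lists are described by counts and medians, with no test. Genes named were the ranking genes, those called, the 5 of the largest moderated t each way, and in each list the called members or else the 2 of the highest mean, and others are said to be picked after their values were seen or are listed among those at an unadjusted p under 0.05. A gene counted in these lists is not reported here. The replicate numbers, used as a block in an alternative, are shared by different mice of different groups. Nothing in the labels says that mice were handled in separate batches. Coordinates are those of GENCODE M21 and promoters those of RefSeq, both on GRCm38.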

Additional observations from a re-analysis of the deposited data

Results flagged for a closer look

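Of 80 sets of 6 mice examined (the ranking genes, the 10 genes most like the ranking and the 24 list scores, in the high and in the low mice), 8 held a mouse far from the other 5 by Dixon's criterion at the 95% level, where chance gives about 1 in 20. All values are log2(CPM + 1) or means of it. Among the high mice, wheel PBS 4 had 5.80 for Ccl2 against 4.01 to 4.66 in the other 5, and control PBS 2 had 2.22 for 2610035D17Rik against 1.00 to 1.37. Among the low mice, control clodronate 5 had 1.24 for Crmp1 and control clodronate 2 had 1.78 for Il1b, each against the floor value of 1 in the other 5. With the other 5 tied at the floor, any value above it would have been flagged. The flags for Crmp1 and Il1b are therefore not to be read against the rate of 1 in 20. Control clodronate 5 also had 1.24 for Pgap3, against 2.08 to 2.26. The score of glycolytic enzymes was 6.06 in control clodronate 2, against 4.21 to 4.74. Wheel clodronate 4 had 5.58 for lymphocyte markers, against 1.00 to 1.25, and 5.28 for mammary epithelium markers, against 6.21 to 6.52.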

How the results depend on the processing

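The number of genes called was 1. It was 2 with no filter on low values (Crmp1 and Ndufs3), 0 with a filter at a mean of 5 CPM, 0 with activity and liposome as covariates, 3 with the lymphocyte score as a covariate (Crmp1, Ier3 and Hmga2), 0 for 5 against 5 mice, 0 for 7 against 7, 104 with the score over all 22 mice, and 4 without the lymphocyte-rich mice (Crmp1, Fanca, Ccnf and Cdca5). Ranking without Vegfa gave 10 genes, without Slc2a1 3 (Crmp1, Nol10 and Ncapg), without Adm 2 (Crmp1 and Il1b), without P4ha1 18 and without Ndrg1 10. Il1b, which passed the filter only through the high mice, is among those called without Vegfa, Adm, P4ha1 or Ndrg1. Within PBS mice, 5 against 2, limma called 20 genes, 5 higher and 15 lower, Crmp1 not among them, and within clodronate mice no fit was made, as only 1 was high. Leaving out 1 mouse at a time gave 0 to 3 genes, with 0 without control PBS 4, control clodronate 2, wheel clodronate 1, wheel PBS 2 or wheel clodronate 4, 3 without control PBS 2 or control clodronate 5 and 2 without wheel PBS 3, and 843 to 1929 genes at an unadjusted limma p under 0.05. Where 0 genes were called, 811 (mean filter), 903 (covariates), 1200 (5 against 5) and 1303 (7 against 7) had an unadjusted limma p under 0.05. Crmp1 did not pass the filter at a mean of 5 CPM, so it was not tested there. Alternatives chosen after seeing the data were voom on reads recovered for genes above the floor in all 12 mice, with 0 called and 852 at an unadjusted limma p under 0.05 (Crmp1 was not among the genes that could enter), and the proliferation score as a covariate, with 0 and 725. The cause was not tested. A quasi-likelihood test on recovered reads was not run, as reads at the floor are lost.

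With the replicate block, limma called 0 genes, with 1168 at an unadjusted p under 0.05 and an adjusted p of 0.243 for Crmp1. The mice share only a number: deviations of same-numbered mice of different groups correlated by 0.048 on average (31 pairs, -0.39 to 0.52), against -0.009 for 150 pairs of different numbers.

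Crmp1 was higher under all 25 alternatives that gave it a value and passed adjustment in 19, with limma adjusted p from 0.00356 to 0.928. It passed in 7 of 12 fits without 1 mouse. These fits are not independent. Ranking by z-scores, after upper-quartile scaling or without Pfkp repeated the main fit, and ranking without Vegfa or without Ndrg1 gave the same result. It did not pass with activity and liposome as covariates, with the replicate block, within PBS mice, for 5 against 5 or 7 against 7 mice, or with the proliferation score. Of the 838 higher genes, 73.5% were higher in the mice between. For alternatives the share was taken over the higher genes of that setting. It was 67.6% of 648 genes after upper-quartile scaling (all genes 46.7%). With activity and liposome as covariates it was 81.1% of 433, and without the lymphocyte-rich mice 79.3% of 1096 (all genes 56.6% in both). Counts over activity and liposome stayed on the same side of the threshold. The lowest p was 0.080 (two-sided Fisher's exact test), for PBS liposomes in 5 high against 1 low mouse. It arose when ranking without Vegfa, Slc2a1, P4ha1 or Ndrg1. Of 646 list medians under alternatives, 637 moved by less than the spread between mice. This does not mean that each median kept its sign. Those of HIF pathway regulators and endothelial markers turned sign after upper-quartile scaling, and that of hemoglobin genes within PBS mice.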
